A study of Mus musculus with 10 samples.

Results

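The region probes are the gene probes of a mouse expression array whose target is named in the scanner files by a stretch of a chromosome and not by a gene. They were chosen as all probes outside the control spots whose systematic name starts with chr, and there were 4450 of them among 56605 distinct gene probes. Array designs of this kind place such probes on candidate long intergenic noncoding RNAs (lincRNAs). The files give only the stretch and a strand letter, and none of the 4450 probes was matched to a gene symbol, which left the intergenic position of the stretches unchecked. Coordinates are those of mouse build mm9, as named in the file headers.

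LincRNAs are long transcripts from between protein-coding genes that carry no long open reading frame. They are spliced and often polyadenylated like messenger RNAs, but most are less abundant and more restricted to one tissue or cell type. The brain holds many of them, and some act in the nucleus on chromatin or on neighbouring genes.

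Hippocampal RNA of 10 mice was hybridised, 1 array per mouse, with 5 PGC-1αf/f controls and 5 nPGC-1α animals, all given in the labels as males of 12 weeks. All mice were of C57BL/6 background and carried a PGC-1α transgene at the Rosa26 locus, silenced by a floxed PGK-neo-STOP cassette. The nPGC-1α mice also carried Eno2-Cre, which is driven by a neuronal promoter and removes the cassette, so that PGC-1α and an IRES-linked eGFP can be made in neurons, and the controls were littermates without Cre. PGC-1α is a transcriptional coactivator of genes of mitochondrial biogenesis. The comparison asked how the hippocampal profile differed with the neuronal transgene.

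Of 2 probes of Ppargc1a, which encodes PGC-1α, only 1 was kept for testing, and it did not separate the groups. Its levels in the PGC-1αf/f mice were 2.34, 2.19, 2.13, 2.19 and 2.15 and those in the nPGC-1α mice were 2.29, 2.23, 2.06, 2.12 and 2.31, on a log2 scale on which 0 is the 75th percentile of the array. The difference was 0.0035 ± 0.085 (SE, limma adjusted p = 0.990), and whether this probe lies in a part that the transgene carries is not given in the sources used here. The labels therefore have no check from the RNA of this gene on these arrays, and every direction below is between arrays labelled nPGC-1α and arrays labelled PGC-1αf/f. The labels give the cell type as neuron, but all 25 marker genes examined for neurons, astrocytes, oligodendrocytes, microglia, endothelium and choroid plexus were well above background on all 10 arrays, by the 1 probe taken for each. Y-linked transcripts were present on 4 arrays (replicates 1, 3 and 5 of nPGC-1α and replicate 1 of the controls) and absent on 6, against the label of sex, so this feature was unequally divided between the groups. The X-linked transcript Xist was low on these 4 arrays, at -4.91, -5.80, -5.14 and -5.03 in that order. It was also low, at -5.34, on PGC-1αf/f replicate 5, which lacked Y-linked transcripts. The other arrays lay between -3.28 and -2.43, so the 2 features did not divide the arrays alike. The dimmest spots also differed between the groups. The median signal of the negative controls lay between 5.13 and 8.97 in the PGC-1αf/f arrays and between 10.65 and 20.7 in the nPGC-1α arrays, and the lowest signal that the scanner software marked as well above background lay at 24.2 to 41.2 and 50.4 to 97.9 intensity units.

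The 4450 probes carried 4062 different names, each a stretch with its strand letter, on 20 chromosomes, the 19 autosomes and X, and none lay on Y. Chromosome 1 held 343 of them, chromosome 19 held 95 and X held 174. The stretches were between 62 and 538251 bases long, with a median of 10601 over the probes. The strand letter was F for 2227 probes and R for 2222, and 1 name had none. Of these names, 3746 had a single probe, and the largest number of probes under one name was 6.

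Most region probes gave a signal in hippocampus, fewer on the arrays labelled nPGC-1α. The share marked well above background was 70.0%, 80.2%, 78.3%, 77.3% and 74.5% on the PGC-1αf/f arrays and 61.8%, 66.5%, 55.7%, 66.7% and 65.2% on the nPGC-1α arrays. The groups did not overlap, and the difference was -12.9 percentage points (76.1% ± 3.95 against 63.2% ± 4.62, SD, n = 5 each; two-sided exact permutation test, p = 0.00794, the smallest that 5 against 5 arrays can give). Among negative controls the marked share was between 0.325% and 2.92% of 308 spots. The protein-coding probes, those named by a RefSeq NM_ accession, moved the same way by less, from 84.5% ± 2.14 to 79.0% ± 1.80. Within each array the region share minus the protein-coding share was -8.39 ± 1.86 points in PGC-1αf/f mice and -15.8 ± 2.88 points in nPGC-1α mice, a change of -7.45 points (exact permutation test, p = 0.00794). Region probes were denser at dim levels, with 5.62% of them and 2.67% of protein-coding probes at mean levels of -6.5 to -6. The marking threshold also differed between the groups, so this test cannot tell a change in RNA from the threshold. The noncoding probes with an NR_ accession shifted almost as far as the region probes, by -11.2 points. Probes with an XR_ accession shifted by -13.1 points, those named by an Ensembl transcript (ENSMUST) by -10.1 and all gene probes by -8.12. A shift of this size was therefore not particular to region probes.

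The marking threshold of the scanner software lay higher on all nPGC-1α arrays than on any control array, so the shares were also counted at a fixed level. When 1 common level was set for all arrays (-5.75 on the log2 scale, an alternative chosen after seeing the data), the region share was 61.7%, 62.4%, 60.4%, 59.4% and 57.4% in PGC-1αf/f mice and 59.3%, 59.6%, 56.7%, 58.5% and 57.8% in nPGC-1α mice. The groups then overlapped and differed by -1.89 points (exact permutation test, p = 0.119). The distance to the protein-coding probes still changed, by -1.98 points (from -16.3 ± 1.29 to -18.3 ± 1.05, p = 0.00794 by the exact permutation test). On the slide that held replicates 1 to 4 of both groups the difference in marked share was -13.8 points. There all PGC-1αf/f arrays lay in row 1 and all nPGC-1α arrays in row 2, so group and row cannot be told apart. On the other slide, with 1 array of each group, both in row 1, the difference was -9.35 points. The difference in marked share was -9.15 points among the arrays with Y-linked transcripts and -10.99 points among those without.

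**Figure D1:**
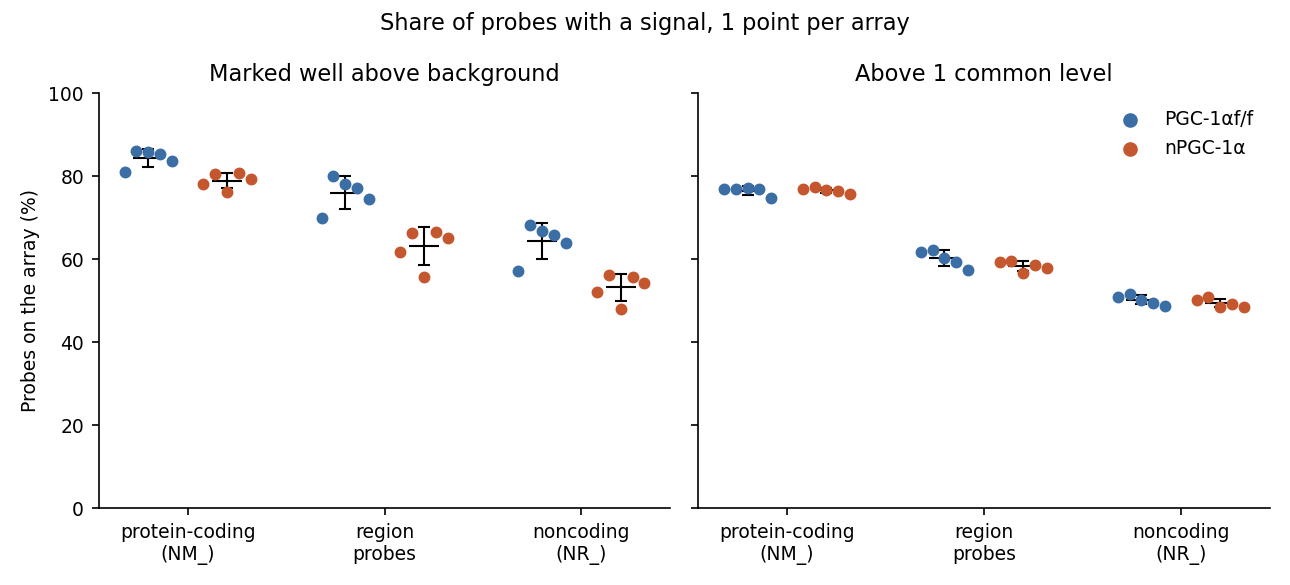
Percent of protein-coding (NM_), region and noncoding (NR_) probes on each of the 10 arrays that were marked well above background by the scanner software (left) or lay above 1 common level (right), with 1 point per array, bars for mean ± SD and the groups in blue (PGC-1αf/f) and orange (nPGC-1α). The region probes of the 2 groups do not overlap on the left (55.7% to 66.7% against 70.0% to 80.2%) and overlap on the right.

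Of the 4450 probes, 2412 (54.2%) were well above background on all 10 arrays, 691 (15.5%) on none and 1347 on some. The protein-coding probes divided differently, with 74.6% on all arrays and 10.5% on none. Region probes on all arrays made up 66.3% of those on chromosome 17 and 45.1% of those on chromosome 9. They made up 43.5% of the quartile of probes with the shortest stretches (62 to 1736 bases) and between 55.6% and 60.0% in the other quartiles. Strand made little difference, with 52.6% of F probes and 55.8% of R probes on all arrays.

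Region probes were dimmer than protein-coding probes. Their median level, over probes on all 10 arrays, was -2.85, -2.76, -2.91, -3.01 and -3.04 in PGC-1αf/f mice and -2.91, -2.94, -3.06, -2.97 and -2.97 in nPGC-1α mice, on the log2 scale. The protein-coding median was -0.58 ± 0.036 (SD over 10 arrays), and the region median lay 2.37 ± 0.11 below it within an array. The noncoding NR_ probes lay close to the region probes, with a median of -2.47 ± 0.088. Only 373 region probes (8.38%) had a mean level above the 75th percentile of the array, against 31.3% of protein-coding probes. These are levels of probe classes, and since probes differ in affinity they were described and not tested.

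**Figure D2:**
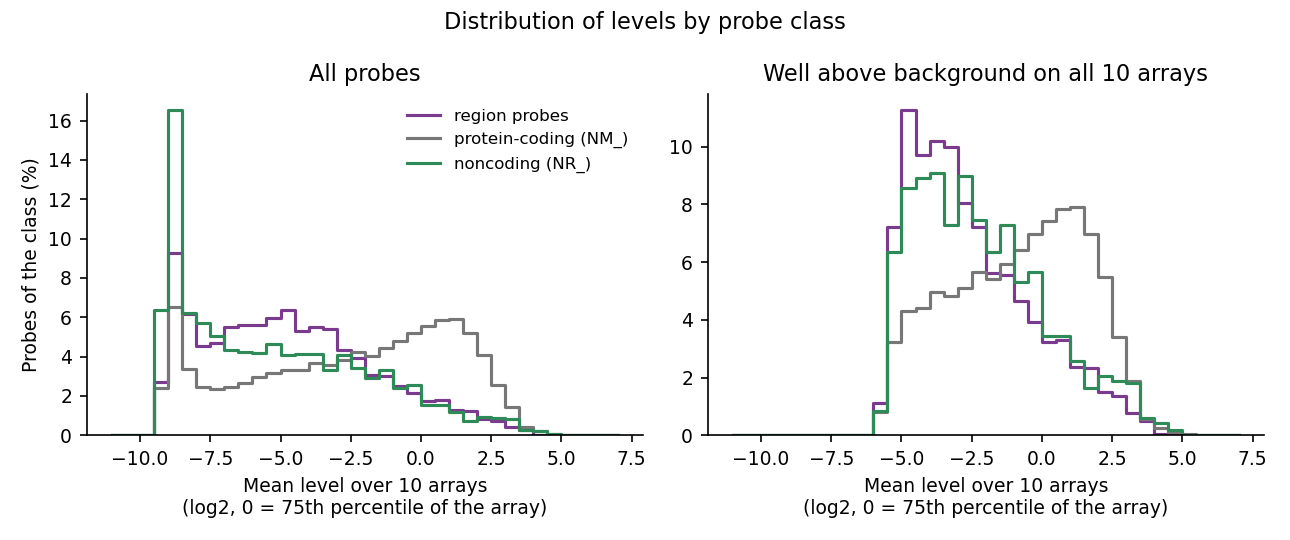
Distribution of the mean level over the 10 arrays (log2, 0 is the 75th percentile of the array) for region, protein-coding (NM_) and noncoding (NR_) probes, as percent of each class in steps of 0.5, for all probes (left) and for probes well above background on all 10 arrays (right). On the right, the fullest step is -5 to -4.5 for region probes and 1 to 1.5 for protein-coding probes.

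A few region probes were among the bright signals of the array. The brightest, A_30_P01031448 on chr14:78924115-78938125 (strand F), had levels of 5.18, 4.57, 4.50, 4.71 and 4.39 in PGC-1αf/f mice and 4.93, 4.56, 4.46, 4.60 and 4.51 in nPGC-1α mice. The groups overlapped and differed by -0.06 ± 0.15 (SE, limma adjusted p = 0.892). The next were A_30_P01024756 on chr7:82902248-82955248 and A_30_P01023523 on chr6:116092274-116144199, both on strand F. Their group means were 4.33 and 4.28 for the former and 4.00 and 3.97 for the latter, PGC-1αf/f first. The other 7 of the 10 brightest lay on chr5:125861675-125880125, chrX:98979320-98997145, chr14:49314574-49358174, chr7:108209996-108216032, chr8:106592650-106603525, chr17:26679595-26688270 and chr15:23415775-23436200, with group means between 3.48 and 3.93. None of the 10 had a limma adjusted p below 0.546, and their differences lay between -0.22 and 0.04.

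For 832 stretches the array carried probes to both strand letters of the same start and end. Both were well above background on all 10 arrays for 371 (44.6%), a single one for 278 (33.4%) and neither for 183. In 60 stretches one strand was on all arrays and the other on none, 19 with F and 41 with R as the strand on all arrays. Which strand letter matches the RNA is not given in the sources used here. The brightest pair lay on chr5:35975265-35982561, where A_30_P01024606 (F) had group means of 3.13 and 2.91, each from 4 arrays because outlier spots were left out, and A_30_P01032382 (R) had 3.24 and 2.94. The other 3 pairs named by the rule, on chr6:116092274-116144199, chr16:90038086-90127636 and chr7:108209996-108216032, had group means of 2.36 to 4.00 on either strand. Where both strands could be tested, 354 pairs, 172 were lower and 61 higher in nPGC-1α mice on both strands, and the remaining pairs differed in sign. The brightest tested probe stood for each strand. Beside this, 66.4% of region probes tested on all 10 arrays were below 0, and whether the pair counts go beyond that was not tested.

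No region probe passed an adjusted p of 0.05 in limma. The smallest was 0.0912 among the region probes well above background on each of the 10 arrays and 0.0614 among those that entered through a single group, while 1 of 39142 probes of all kinds did (0.00255%). Of the region probes, 2978 could be tested. Among these, 465 (15.6%) had an unadjusted p under 0.05, beside 11.9% of all probes tested, and with a fold of at least 1.5 there were 149 lower and 10 higher, beside 2.98% and 1.03% of all probes tested. Since some of them entered through a single group, the 2355 that were bright everywhere, with the mark on each of the 10 arrays, were read apart. Of these 2355, 279 (11.8%) had an unadjusted p under 0.05, beside 9.98% of all probes of the same kind. With the same fold added, 57 were lower and 9 higher in nPGC-1α mice, 2.42% and 0.382%, beside 1.35% and 1.07% of all probes of the same kind. That background is brighter, since quartiles 1 and 2 of brightness, the dimmest, held 950 and 731 of the 2355. From quartile 1 to 4, 3.58%, 2.60%, 0.962% and 0% of region probes were lower at this fold. The same shares of all probes were 2.81%, 2.05%, 0.452% and 0.0812%. Higher were 4, 3, 2 and 0 region probes. Among those of the 2355 with a value on every array, 40 were lower without overlap of the groups (1.84%, background 1.41%) and 3 were higher (0.138%, background 0.807%). By the exact Mann-Whitney test, the counts at 1.5-fold were 38 lower and 3 higher, with 0 at an adjusted p of 0.05.

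The region probes leaned to the lower side as a class. Their median difference was -0.08 on the log2 scale and 66.4% were below 0, against a median of 0.0036 and 49.0% below 0 for the protein-coding probes and a median of -0.03 for all 34491 probes on all arrays. NR_ probes had the same lean, with a median of -0.07. ENSMUST probes leaned further, with a median of -0.10, 68.9% below 0 and 2.98% lower at 1.5-fold and an unadjusted p under 0.05. The lean of the region probes was there at every brightness. From the dimmest to the brightest quartile of probes, the region medians were -0.11, -0.07, -0.04 and -0.07 and the protein-coding medians were 0.04, 0.04, 0.02 and -0.03. After quantile normalisation the region median was -0.0027 and the protein-coding median 0.07, so the region median kept its sign and came close to 0 while it still lay below the protein-coding median. The counts at 1.5-fold were then 13 higher and 33 lower, and 8 higher and 26 lower when normexp background correction and quantile normalisation were applied together.

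The lean was not the same on every array. The median deviation of the region probes from their mean over the 10 arrays was 0.13, 0.13, 0.03, -0.01 and -0.06 in PGC-1αf/f mice and 0.06, -0.02, -0.14, -0.06 and -0.03 in nPGC-1α mice. PGC-1αf/f replicates 1 and 2 stood highest and nPGC-1α replicate 3 lowest, and the groups overlapped. Without PGC-1αf/f replicate 2 the 1.5-fold counts were 37 lower and 4 higher. The count of higher probes was 15 without PGC-1αf/f replicate 3, 16 without PGC-1αf/f replicate 4, 5 without nPGC-1α replicate 2 and 4 without nPGC-1α replicate 4.

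**Figure D3:**
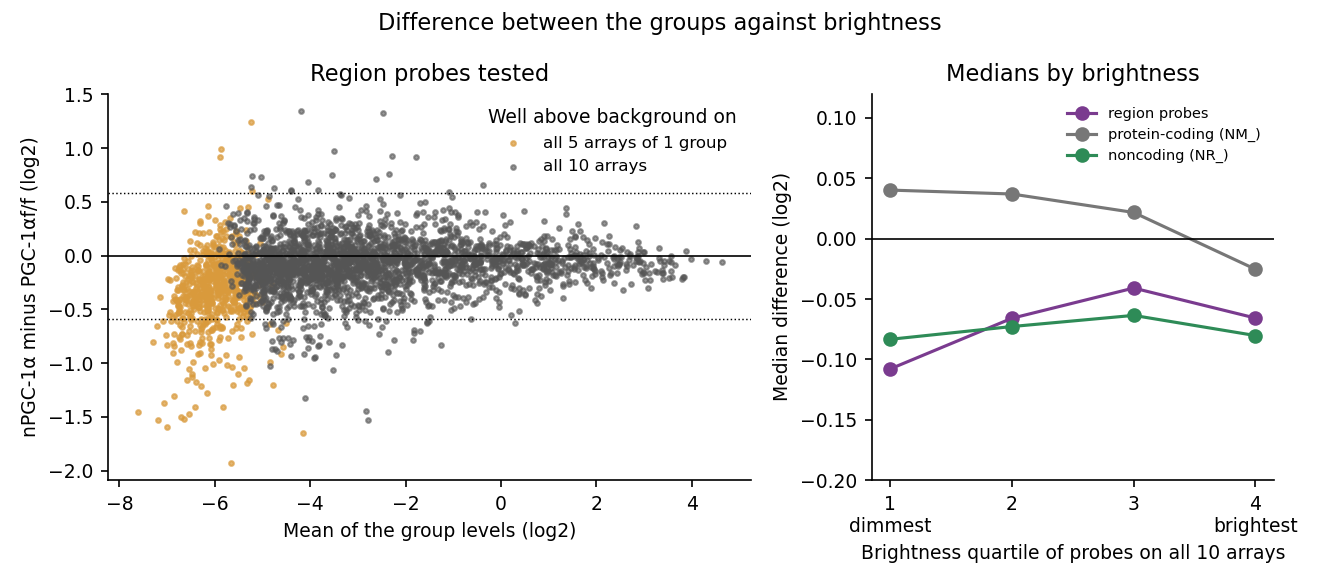
Left, difference nPGC-1α minus PGC-1αf/f (log2) of the 2978 region probes tested, against the mean of the group levels (log2), in grey for probes well above background on all 10 arrays and in yellow for those on all 5 arrays of 1 group only, with dotted lines at 1.5-fold. Right, median difference by brightness quartile for region, protein-coding (NM_) and noncoding (NR_) probes on all 10 arrays, where the region medians lie between -0.11 and -0.04 and below the protein-coding medians in every quartile.

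The 6 lower probes with the smallest p did not overlap between the groups. They were chosen by p from these same values, so the lack of overlap is no further support for a change. Lower without overlap were 1.84% of region probes and 1.41% of all probes of the same kind. A_30_P01028240 on chr4:44181997-44249172 (R) had levels of -3.92, -3.84, -4.21, -4.05 and -3.80 in PGC-1αf/f mice and -4.75, -4.60, -5.12, -4.65 and -4.63 in nPGC-1α mice. It was 1.72-fold lower (difference -0.79 ± 0.12, SE, limma adjusted p = 0.0912). Every nPGC-1α value lay below every control value.

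A_30_P01027905 on chrX:102568332-102587093 (R) was the brightest of the 6. Its levels were 0.69, 0.62, 0.77, 0.44 and 0.55 in PGC-1αf/f mice and 0.17, 0.23, -0.27, -0.17 and -0.04 in nPGC-1α mice, a difference of -0.63 ± 0.12. It was lower both among the arrays with Y-linked transcripts, by -0.74, and among those without, by -0.56. The probe A_30_P01032743 on chr5:14960146-14978541 (F) was at -4.34, -3.87, -4.05, -4.72 and -4.34 in PGC-1αf/f mice and at -5.48, -4.88, -5.19, -5.24 and -4.97 in nPGC-1α mice, 1.85-fold lower.

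The other 3 were A_30_P01020100 on chr2:116802549-116803286 (R), A_30_P01033146 on chr6:82773209-82787212 (F) and A_30_P01024441 on chr12:76759861-76760240 (R). They fell short of the adjusted threshold as well, with differences of -0.64, -0.48 and -0.63 and adjusted p from limma of 0.0947, 0.0947 and 0.106. Over the alternatives the adjusted p of the 6 ranged from 0.0289 to 0.585. Only the fit without a filter on dim probes, which also takes in the probes at background, took them under 0.05.

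Of the 6 higher probes with the smallest p, a pair lay on the same stretch and strand, chr17:29374758-29387733 (F). A_30_P01028898 had levels of -2.85, -3.39, -2.22, -2.52 and -2.80 in PGC-1αf/f mice and -1.52, -1.59, -1.77, -2.02 and -2.23 in nPGC-1α mice. It was 1.91-fold higher (0.93 ± 0.21, SE, limma adjusted p = 0.144), although nPGC-1α replicate 5 lay just below PGC-1αf/f replicate 3. A_30_P01020719 differed by 0.40 ± 0.13 and also overlapped. Another probe of this stretch and strand, A_30_P01032951, differed by 0.07, so the probes of this stretch did not move by the same amount.

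The remaining 4 were smaller differences. They were A_30_P01026895 on chr3:10088209-10089038 (0.38), A_30_P01026233 on chr8:119739165-119739905 (0.39, with 4 nPGC-1α values after an outlier spot was left out), A_30_P01024470 on chr1:193923014-193923346 (0.31) and A_30_P01024821 on chr8:67213300-67271700 (0.43), all on strand F. Their adjusted p from limma lay between 0.247 and 0.276.

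**Figure D4:**
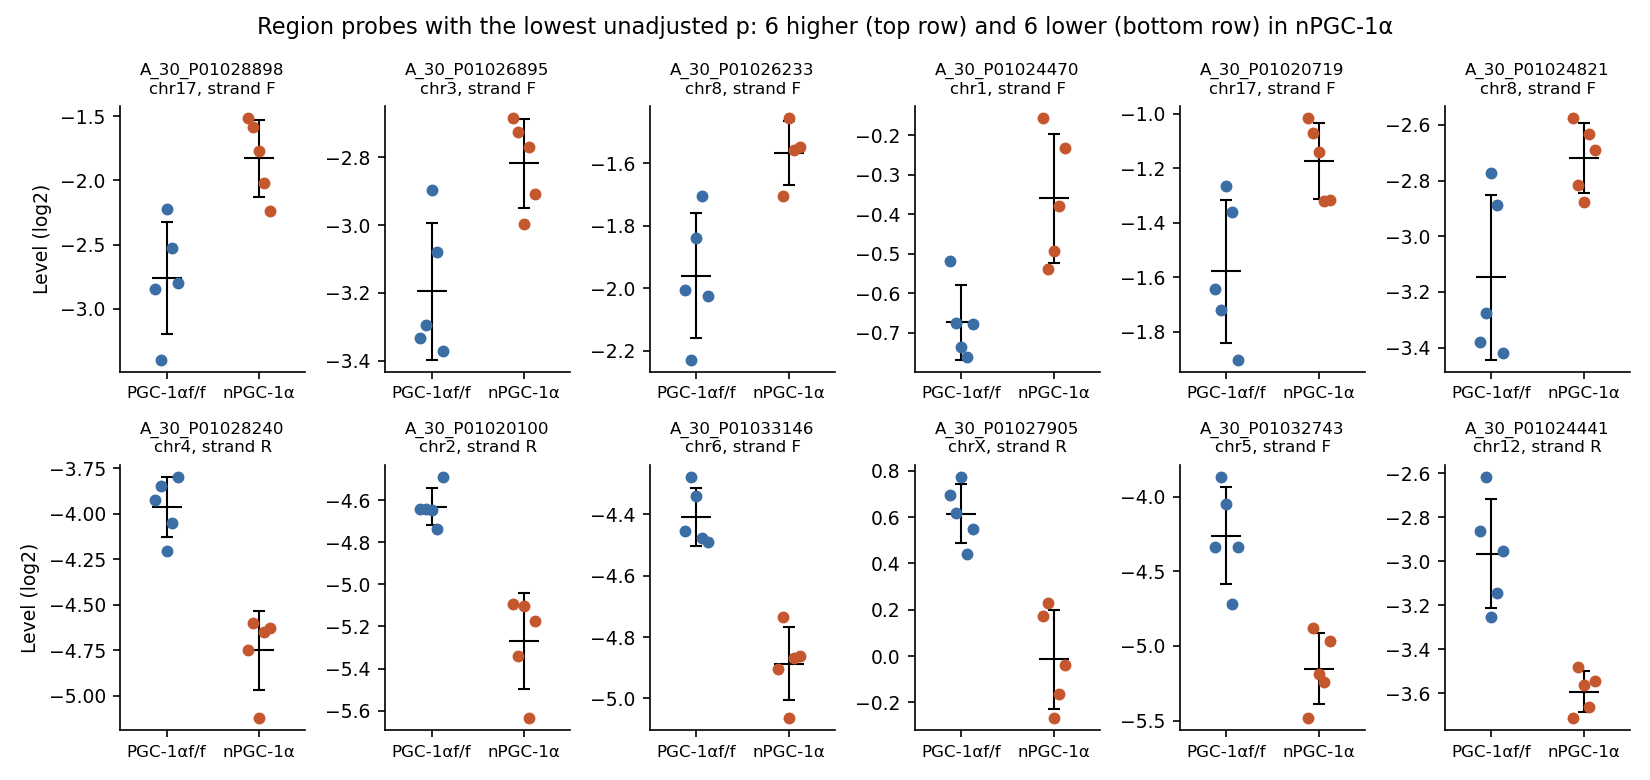
Level (log2, 0 is the 75th percentile of the array) of the 6 higher (top) and 6 lower (bottom) region probes with the lowest unadjusted p among those well above background on all 10 arrays, with 1 point per array and bars for mean ± SD (n = 5 per group, 4 for nPGC-1α in A_30_P01026233). The groups do not overlap in the bottom row, where the probes were chosen by p from these same values, and none of the 12 passed an adjusted p of 0.05.

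The dim probes were kept apart. Of the 2978 tested, 623 entered because they were well above background on all arrays of 1 group, 618 through the PGC-1αf/f arrays and 5 through the nPGC-1α arrays. Such probes had to differ in the mark, so their differences are no support for a change. At an unadjusted p of 0.05 and 1.5-fold, 92 of them were lower and 1 higher, 14.8% lower beside 15.1% of all 4651 probes that entered in this way, where 0.753% were higher. The remaining 1472 region probes were not tested, 1415 as too dim in each group and 57 for missing values after outlier spots were left out.

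There were 89 region probes on all 5 PGC-1αf/f arrays and on no nPGC-1α array (2.00%, beside 1.01% of all probes), and 0 the other way. Among all gene probes 0 went the other way too, so that count was not particular to region probes. The share was 1.71% for XR_, 1.34% for ENSMUST, 1.25% for NR_ and 0.561% for NM_ probes. A dim group gives only a bound, because the detection limit was itself higher on the nPGC-1α arrays. Against the lowest signal well above background on each nPGC-1α array, 23 of the 88 with a tested value had a bound of at least 1-fold and 0 reached 1.5-fold.

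The largest bound was that of A_30_P01032006 on chr8:74333475-74384150 (F), at least 1.46-fold higher in PGC-1αf/f mice. Its measured levels were -6.01, -5.13, -5.56, -5.63 and -6.26 there and -7.58, -6.82, -7.93, -6.76 and -6.54 in nPGC-1α mice, where none was well above background. Its adjusted p in limma was 0.119, which like those of the other probes of this kind is no support for a change, because the probe was tested only through the group where it was high. The next bounds were at least 1.38-fold for A_30_P01023018 on chr4:146156575-146175425 (R), at least 1.37-fold for A_30_P01032987 on chr13:66381200-66410200 (R) and at least 1.30-fold for A_30_P01028789 on chr4:145662641-145669641 (F), with adjusted p from limma of 0.0937, 0.190 and 0.0942.

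Probes of neighbouring stretches were read together. Stretches within 50 kb of each other formed 1671 loci, of which 546 held a single probe, and 80 had at least 5 tested probes on all 10 arrays. In 9 of these 80 every such probe was lower in nPGC-1α mice, and in 2 every one was higher. Of all region probes tested on all 10 arrays 66.4% were below 0, and whether these counts go beyond that lean was not tested. Probes that entered through 1 group were left out of these counts, and some of those had the other sign. The 57 lower probes at 1.5-fold fell in 48 loci, 6 of which held at least 2 of them. These 6 loci were picked out after their values were seen and were not tested as loci.

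The largest difference was on X. Both tested probes of chrX:123303474-123307974 were lower in nPGC-1α mice, A_30_P01032481 by -1.53 ± 0.45 and A_30_P01019676 by -1.44 ± 0.43 (SE, limma adjusted p = 0.241 and 0.244). Their mean level was -2.84, -1.06, -1.65, -2.15 and -2.62 in PGC-1αf/f mice and -4.06, -2.76, -4.80, -2.76 and -3.37 in nPGC-1α mice. The 4 arrays with Y-linked transcripts were the lowest of their group. PGC-1αf/f replicate 5, without Y-linked transcripts but low in Xist, was the next lowest of its group at -2.62. Within the arrays with Y-linked transcripts the difference was -1.23, and within those without it was -0.89, from 1 against 3 and 4 against 2 arrays. Their part in the result was not tested.

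On the second X locus, chrX:92119889-92157256, all 5 probes were lower, by -0.74 to -0.92. The mean level was -3.43, -1.98, -4.08, -3.79 and -3.79 in PGC-1αf/f mice and -4.52, -3.73, -4.75, -4.17 and -3.93 in nPGC-1α mice. The groups overlapped, and PGC-1αf/f replicate 2 stood apart from the others.

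On chromosome 5, between 14921737 and 15033987, all 4 tested probes were lower, by -0.47 to -0.91. The mean over the 3 with a value on every array was -3.95, -3.49, -3.95, -4.49 and -4.31 in PGC-1αf/f mice and -5.09, -4.64, -5.40, -4.73 and -4.61 in nPGC-1α mice, without overlap. This locus holds A_30_P01032743, described above, and all its 8 probes were on strand F. On chromosome 16, the 3 tested probes of chr16:91174611-91200786 were lower by -0.66 to -0.87 on both strands, and their mean differed by -1.34 among arrays with Y-linked transcripts and by -0.52 among those without. The other 2 loci lay on chr11:58136882-58143829, where both probes were lower by -0.66 and -0.82 (the probe with a value on every array by -1.30 with and -0.24 without Y-linked transcripts), and on chr8:26343277-26352902, where 3 of 4 were lower. The longest run of one sign was at chr2:174787150-175005825, with 10 of 10 tested probes lower by -0.09 to -0.45, none of them at 1.5-fold. It stands beside the 66.4% of region probes below 0 given above.

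**Figure D5:**
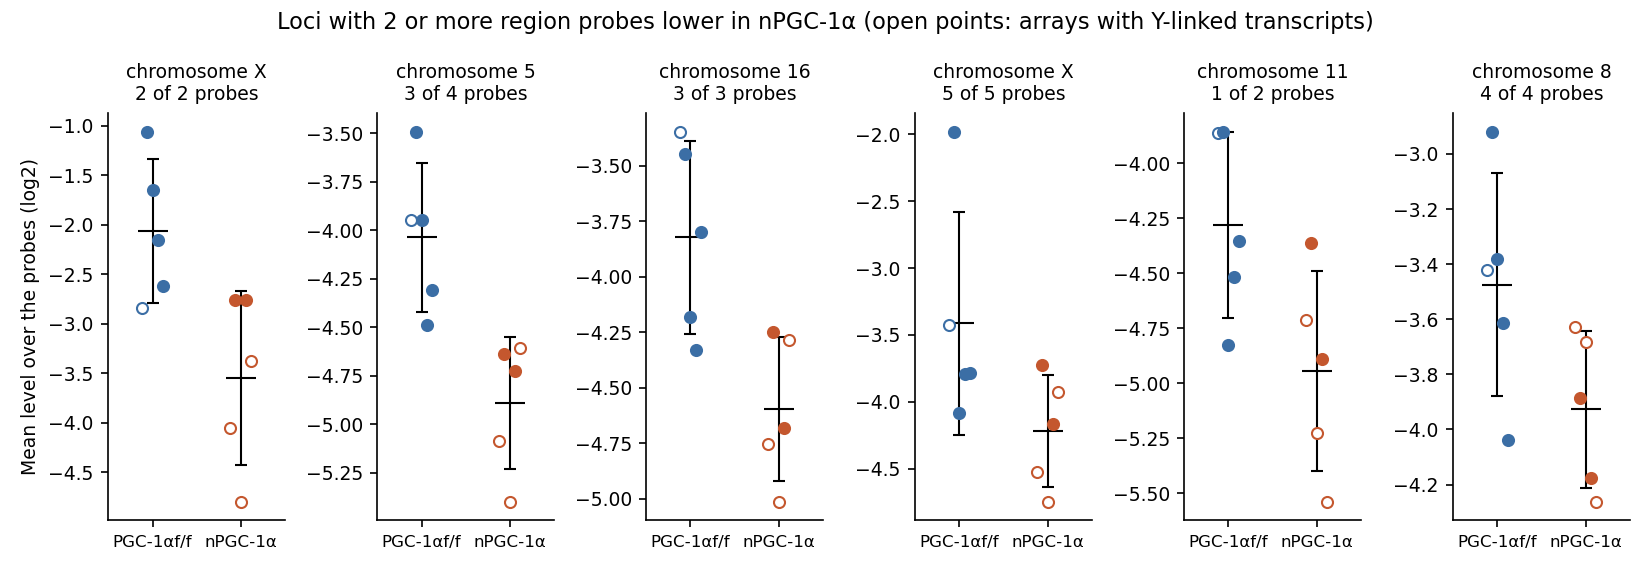
Mean level (log2, 0 is the 75th percentile of the array) over the tested region probes with a value on every array, in the 6 loci that held at least 2 probes lower at 1.5-fold, with 1 point per array, bars for mean ± SD (n = 5 per group) and open points for arrays with Y-linked transcripts. The nPGC-1α means are lower in all 6 loci, which were chosen for that, and in the first X locus the open points are the lowest of their group.

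Probes of one stretch and strand often disagreed. Of 144 such sets with at least 2 tested probes on all arrays, 57 were lower throughout, 27 higher throughout and 60 mixed, and the median range of the differences within a set was 0.15. That is close to the median standard error of a single region probe, 0.14.

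Named long noncoding RNAs of the same arrays gave a point of comparison. Of 30 listed, 23 had a probe, and the 1 probe taken for each of the 23 was well above background on all 10 arrays. Some of these genes had further probes, not all of which were kept for testing. By these probes, 17 of the 23 were lower and 6 higher in nPGC-1α mice, with a median difference of -0.08, and 0 passed an adjusted p of 0.05 in limma. Beside this, 56.3% of all probes on all 10 arrays and 66.1% of NR_ probes were below 0. At an unadjusted p under 0.05, 2 of the 23 were lower and 0 higher, and 9.98% of all probes on all 10 arrays had such a p, so the count is near the background. The values that follow are those of 1 probe per gene. Kcnq1ot1 had 2 of 5 probes kept for testing, Airn 2 of 2, Meg3 3 of 4 and Miat 2 of 2. How their other probes moved is not given here. Kcnq1ot1, the antisense transcript of an imprinted cluster, differed by -0.32 ± 0.12 (SE), and Airn, the antisense transcript of the Igf2r cluster, by -0.26 ± 0.10, with limma adjusted p of 0.352 and 0.354. Meg3, a maternally expressed transcript abundant in neurons, had group means of 3.02 and 2.86, and Miat, a nuclear transcript, had 2.62 and 2.55.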

How the data were processed

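Total RNA of hippocampus was hybridised to Agilent 1-colour (Cy3) mouse arrays, 1 array per mouse and 5 per group, grouped by the labels' titles. The deposited scanner files, written by Feature Extraction 11.5.1.1 per the file headers (the study's methods name an earlier version), hold a background-subtracted intensity per spot, not normalised between arrays, and marks for spots well above background and outlier spots. A deposited table of the authors' log2 values for 41606 probes, 3205 of them region probes, served as an alternative. How those probes were chosen is not given in the sources used here.

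The log2 processed intensity minus the log2 75th percentile of the array was averaged over spots of a probe, without control and outlier spots. No gene spot was saturated. Kept were 39142 probes with the mark on all 5 arrays of either group and at least 3 values in each. The fit was limma 3.58.1 (lmFit, eBayes; R 4.3.3) without covariates, Benjamini-Hochberg adjusted over all probes kept, and it was tested on simulated data. Single values per array were compared by two-sided exact permutation tests (Python 3.11.15, pandas 2.3.3, scipy 1.17.1). The study's methods give no threshold for the arrays, so calls were made at 0.05 on the adjusted p, and at 0.05 on the unadjusted p together with 1.5-fold. Bounds set the brighter mean against the mean of the higher of the lowest signal well above background and the probe's own value.

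Named were the 10 brightest region probes, the 6 higher and 6 lower with the lowest p among probes on all arrays, the 4 largest bounds and the 4 brightest strand pairs, with chromosome 18 counted and not named. The members, lists and rules were chosen with earlier results of these data known. Symbols came from RefSeq (GRCm38.p6), which is another build than mm9 and was not used for positions. Probe sequences were not analysed here. Alternatives were other scalings, background corrections, filters, blocks and variance models, the authors' log2 values, the exact Mann-Whitney test and leaving out each array. P-values measure the spread between mice, and the number of arrays limits the precision.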

Additional observations from a re-analysis of the deposited data

Results flagged for a closer look

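In the 72 sets of 4 or 5 values examined, 4 held a value that stood apart from the rest of its group by Dixon's criterion, where 3.6 would come up by chance at 1 in 20. In nPGC-1α mice, replicate 1 was high in 3 bright probes. Its level was 4.14 in A_30_P01018681 (others 3.804 to 3.894), 3.95 in A_30_P01019201 (others 3.59 to 3.68) and 3.26 in A_30_P01031738 (others 2.90 to 2.97). In A_30_P01032987, one of the probes on PGC-1αf/f arrays only, nPGC-1α replicate 3 was low at -7.98, with the others between -6.86 and -6.65. These values are on the log2 scale relative to the 75th percentile. Replicate 1 had the largest share of outlier spots of its group, 11.6%, and replicate 3 the highest detection limit, 97.9 intensity units. Their part in these values was not tested.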

How the results depend on the processing

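Of 147 recomputed values of the main results, 128 kept their direction and their side of the threshold or stayed near the value reported, and so did 370 of 380 for named probes, the other 10 passing an adjusted p of 0.05 only without a filter. The group difference in the share well above background was -1.89 points at 1 common level. Without a filter on dim probes, 347 region probes passed an adjusted p of 0.05, and 406 were higher and 223 lower at 1.5-fold, over 4393 region probes that include those at background, where the negative controls differ between the groups. The lower count was 33 with quantile normalisation and 26 with normexp and quantile normalisation together, and the higher count was 4 with array weights and 3 with the exact Mann-Whitney test. Leaving out 1 array at a time gave 4 to 16 higher and 37 to 83 lower probes. The region level relative to its reference class was -2.14 with normexp and quantile normalisation together (-2.29 with quantile normalisation alone), -0.47 against NR_ probes and -2.75 with 1 probe per accession or stretch. The causes were not tested. With replicate number as a block the share differed by -12.9 points and its distance to the protein-coding share by -7.45, each with an exact p of 0.0625, the smallest that 5 pairs can give, and the 1.5-fold counts were 10 higher and 60 lower. Same-numbered arrays correlated in their deviations at 0.052 to 0.42 over probes. Replicates 1, 2 and 5 of the PGC-1αf/f group correlated best with their own number, and replicates 3 and 4 with each other's number. The numbers were not taken as pairs of mice. Same-numbered arrays of replicates 1 to 4 lay in the same column of the slide, and an effect of the column was not tested. Dim signals limit what can be seen, since 1415 region probes were too dim to test and the detection limit differed between the groups.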

Other observations

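The lower values of the region probes were spread over the genome. On each of the 20 chromosomes the median difference of the tested probes on all arrays was below 0, between -0.11 on chromosome 16 and -0.04 on chromosome 11, and it was -0.08 on X. By length of the stretch, the median was -0.10 in the shortest quartile and -0.07 in each of the others. The replicate spread of region probes was wider in PGC-1αf/f mice, with a median SD of 0.24 against 0.19 in nPGC-1α mice, and protein-coding probes had 0.21 and 0.15.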
